A study of Mus musculus with 4 samples.

Results

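The comparison described here is that of DNMT1 siRNA with control siRNA in C3H10T1/2 mesenchymal stem cells (MSCs) under osteoblast (OB) induction, that is, the library labelled siDNMT1_OB against the library labelled OB. Its members are all genes with a mean of at least 1 CPM (counts scaled to the total of each library) over the 4 libraries of the series, which were 13233 of the 54532 genes in the deposited count table (11685 of them protein-coding), and the comparison uses 2 of the 4 libraries. C3H10T1/2 is a line of fibroblast-like cells from mouse embryos that can be turned into bone, cartilage, fat or muscle cells. Cells of all 4 groups were transfected for 48 h, with control siRNA in the groups control and OB and with siRNA against DNMT1 in siDNMT1 and siDNMT1_OB. The OB and siDNMT1_OB cells were then kept for 3 days in medium with L-ascorbic acid at 50 µM, β-glycerophosphate at 10 mM and dexamethasone at 0.001 µM, and the control and siDNMT1 cells were left untreated. Poly(A) RNA was sequenced from 1 library per group of this 1 cell line, so nothing below could be checked against the spread between replicates, and no p-value is given for any difference between conditions. The question was which genes and pathways differed between both siRNAs once OB differentiation had been started.

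DNMT1 is the maintenance DNA methyltransferase, which keeps CpG methylation patterns in place when cells divide, and UHRF1 brings it to replication forks. OB induction media combine ascorbate, which collagen hydroxylases need, a phosphate donor for mineral and a glucocorticoid. MSCs of this kind slow their division as they commit, and besides OBs they can give rise to cartilage-like and smooth-muscle-like cells.

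The 4 libraries held between 22296046 and 27367792 counts in genes, the OB library fewest. Mitochondrially encoded genes took from 2.53% to 2.83% of the counts, and the 20 most abundant genes from 8.77% to 10.6%. Every marker gene of skeletal muscle on the list used (Myod1, Myog, Myf5, Ckm and Actn2) was at 0 in both OB-induced libraries, as were the epithelial genes Epcam, Krt5 and Krt14 and the leukocyte genes Cd3e and Adgre1. The epithelial cadherin gene Cdh1 had 7 counts in OB and 17 in siDNMT1_OB. Of the other blood and immune markers, Cd68 had 59 and 62 counts, Lyz2 24 and 17 and Ptprc 2 and 2, and that list summed to 3.76 CPM and 3.03 CPM. A count of 0 allows up to 0.133 CPM in OB and 0.112 CPM in siDNMT1_OB, taking 3 counts as the limit, and this covers counting error only. Of 12 mesenchymal and fibroblast markers, 11 were measured above the filter and none was called, with a summed level of 30620 CPM in OB and 33501 CPM in siDNMT1_OB. The OB label was carried by few defining genes at day 3, since only 4 of the 9 osteoblast markers passed the filter. Summed over the 9 markers, the level was lower in OB (291 CPM) than in control (636 CPM). It was 309 CPM in siDNMT1 and 367 CPM in siDNMT1_OB. A longer list of osteoblast markers and mineralization genes went the other way, with 4753 CPM in control and 10307 CPM in OB. That list summed to 5140 CPM in siDNMT1 and 9608 CPM in siDNMT1_OB. The median log2 fold change of its measured genes was 0.18 for OB over control. Alpl, the alkaline phosphatase of early OBs, had 2 counts in OB and 0 in siDNMT1_OB, Bglap (osteocalcin) had 1 and 3, and Sp7 (osterix) 8 and 4.

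Dnmt1, the siRNA target, was looked at first as a check of the labels. The OB library held 1931 Dnmt1 counts (85.4 CPM after scaling to library size) and siDNMT1_OB 2492 (93.1 CPM), against 7195 in control and 3375 in siDNMT1. Its log2 fold change, siDNMT1_OB over OB as everywhere below, was 0.13 with a 95% counting interval of 0.04 to 0.21. Dnmt1 mRNA was therefore not lower in the library labelled siDNMT1_OB, and every direction given for that library is subject to this. Among the 17 measured genes of the DNA methylation machinery, 1 was called, Uhrf1, the hemimethyl-CpG reader that recruits DNMT1, with 934 counts in OB and 2385 in siDNMT1_OB (log2 fold change 1.11, interval 1.00 to 1.22). Hells, a chromatin remodeller needed for methylation of repeats, had 573 and 1149 counts (0.76). The de novo methyltransferase genes Dnmt3a (852 and 939 counts, −0.10) and Dnmt3b (103 and 105 counts, −0.21) and the demethylating dioxygenase genes Tet1 (0.08), Tet2 (−0.36) and Tet3 (−0.21) lay closer to 0. Uhrf1 and Hells are also genes of proliferating cells, and their values moved with those of the DNA replication genes given below, whose part in them was not tested.

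For a gene to be called higher or lower, the log2 fold change had to reach 1 in size and a binomial test of its reads in both libraries had to pass a Benjamini-Hochberg adjusted threshold of 0.05. That test compares the libraries, not the conditions. By this rule 311 genes were higher in siDNMT1_OB (2.35% of those tested) and 178 were lower (1.35%), and these shares are the background for the calls in every gene list below. The median over all tested genes was 0.013, and 85.3% of them lay within 0.5 of 0. The higher set was 286 protein-coding genes, 6 long intergenic noncoding RNAs and others, and 27 of the 311 were at least 4-fold higher. The lower set held 138 protein-coding genes and 12 long intergenic noncoding RNAs, and 8 of the 178 were at least 4-fold lower. Calls were commoner at low levels. Of the 132 tested genes with a mean under 1 CPM in both OB-induced libraries together, which passed the filter through the untreated libraries, 16.7% were higher and 1.52% lower. Of the 1471 genes between 1 and 3 CPM, 4.89% were higher and 4.96% lower, against 0.699% and 0.513% of the 2145 genes over 100 CPM. With no expression filter, 450 genes were higher and 428 lower of 27380 tested, so 51.25% of the calls were then higher. Exons of 73 higher (23.5%) and 54 lower genes (30.3%) overlap a gene on the opposite strand, as do those of 30.6% of all tested genes. How the counting treated strand and reads shared by overlapping genes was not stated. The counts of such genes can therefore include reads of the other gene or lack reads of their own.

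**Figure D1:**
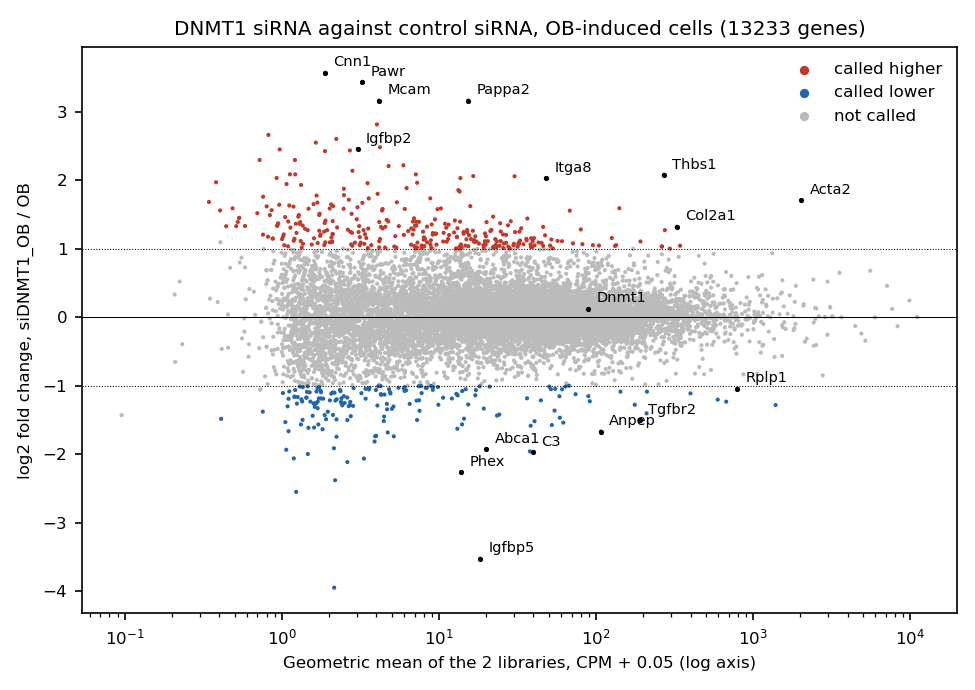
Each point is 1 of the 13233 tested genes, with the geometric mean level of the OB and siDNMT1_OB libraries (CPM, log axis) against the log2 fold change, siDNMT1_OB over OB. The 311 genes called higher are red and the 178 called lower are blue, dotted lines mark a log2 fold change of 1 in either direction, and Dnmt1 sits near 0.

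The 15 highest protein-coding genes had log2 fold changes from 2.21 to 3.57. Cnn1, which encodes calponin, an actin-binding protein of smooth muscle (chromosome 9, 22099216 to 22109630, GRCm38), was counted 11 times in OB and 177 times in siDNMT1_OB, beside 2 times in control and 9 in siDNMT1. Its log2 fold change was 3.57 (2.89 to 4.79), the highest of the protein-coding genes with at least 50 counts in the higher library. Pawr, a pro-apoptotic transcriptional regulator (chromosome 10, 108332121 to 108414240), rose from 21 counts in OB to 289 (3.43, 2.90 to 4.25), and the untreated libraries held 10 with control siRNA and 75 with DNMT1 siRNA. Mcam encodes the adhesion molecule CD146 of pericytes and endothelium (chromosome 9, 44134469 to 44142727). It went from 30 counts in OB to 334 in siDNMT1_OB (3.16, 2.69 to 3.82), and control and siDNMT1 held 133 and 241. Myom1, the gene of the sarcomere protein myomesin, had 33 counts in OB and 287 in siDNMT1_OB (2.81). Rgs5, a G protein regulator and pericyte marker, had 6 and 56 (2.66). The T-type calcium channel gene Cacna1h rose from 14 counts to 107 (2.55). Also among the 15 highest were Pdgfb, the platelet-derived growth factor B chain (39 and 267 counts, 2.48), Hdac9, a class IIa histone deacetylase (25 and 169, 2.43), Erg, an ETS factor of endothelium and cartilage (11 and 72, 2.29), and Serpina3g (49 and 275, 2.21). The remaining ones were Unc13c (8 and 61, 2.45), Pcp4l1 (61 and 343, 2.22) and the genes Pappa2, Igfbp2 and Col10a1 taken up below.

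The lowest genes included secreted and surface proteins that were high in the OB library. Igfbp5, an insulin-like growth factor (IGF) binding protein of bone (chromosome 1, 72857932 to 72874884), fell from 1409 counts in OB (62.3 CPM) to 143 in siDNMT1_OB (5.34 CPM), where control held 29 and siDNMT1 8. The log2 fold change of Igfbp5 was −3.52 (−3.80 to −3.29). Phex, a membrane peptidase that regulates phosphate handling and mineralization (chromosome X, 157162075 to 157415312), fell from 687 to 168 counts (−2.26, −2.53 to −2.03), next to 256 in control and 116 in siDNMT1. Aspg, an asparaginase (113 counts in OB and 24 in siDNMT1_OB, −2.38), Acsbg1, an acyl-CoA synthetase (123 and 32, −2.11), and Pi16 (55 and 14, −2.06) were also among the 15 lowest, as was Igfbp3. Clec3b, the gene of tetranectin, a plasminogen-binding matrix protein, had 1693 and 514 counts (−1.96). For Abca1, the exporter of cellular cholesterol, the counts were 237, 274, 882 and 273 in control, siDNMT1, OB and siDNMT1_OB (−1.93), so siDNMT1_OB was at the level of the untreated libraries. The others were C3, taken up below, Lctl (−2.00), the glutamate transporter gene Slc1a2 (−1.91), the periplakin gene Ppl (−1.81), the alcohol dehydrogenase gene Adh1 (−1.75), Serpinb9b (−1.74) and Kctd19 (−1.74). The lowest value of any called gene was that of the pseudogene Gm10039, chosen after its values were seen, with 195 counts in OB and 13 in siDNMT1_OB (−3.95). Being a pseudogene, it can share reads with a related gene.

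**Figure D2:**
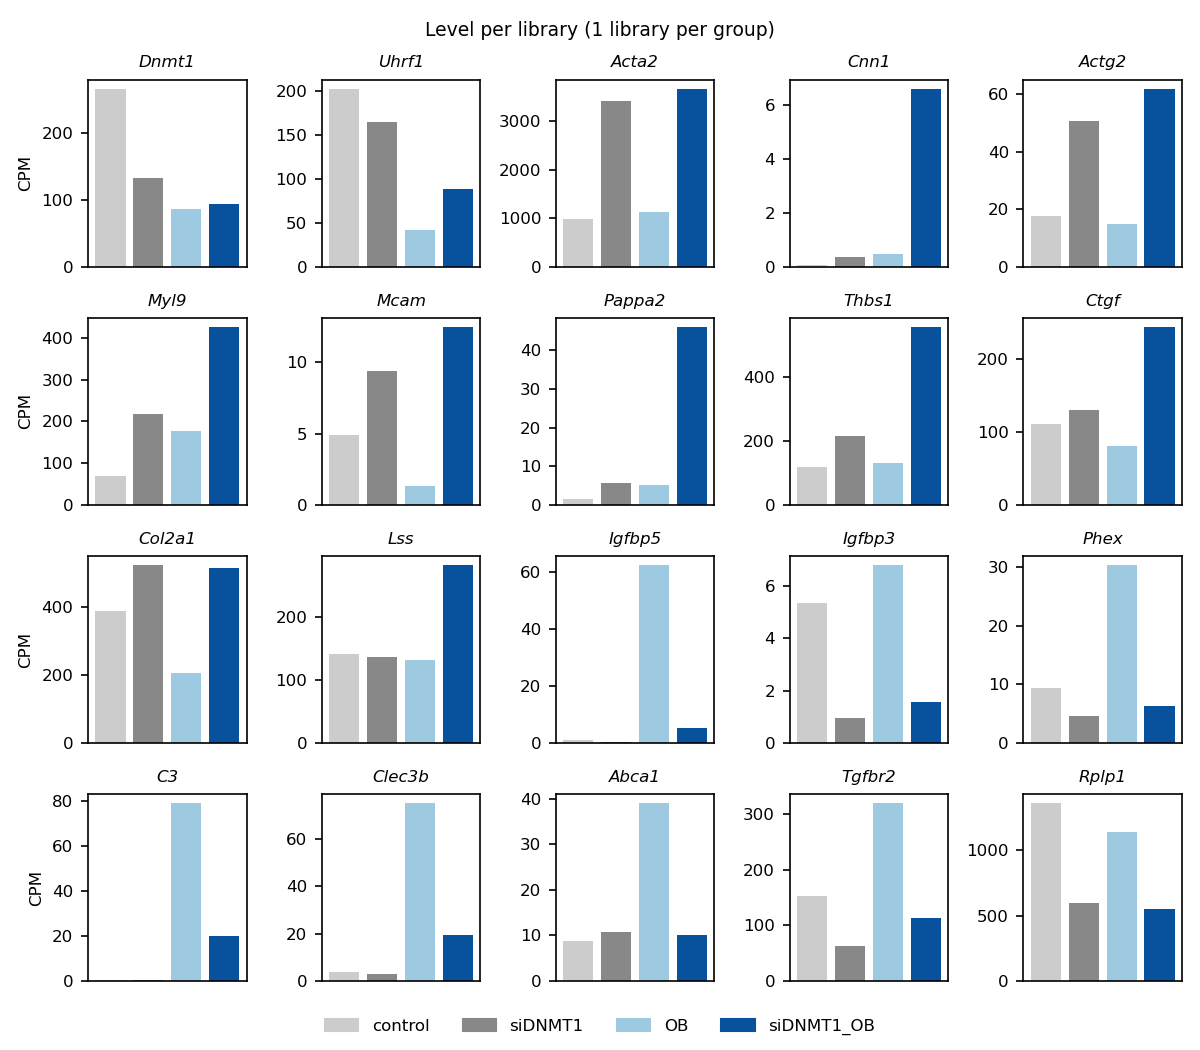
Bars give the level (CPM, linear axes that start at 0 and differ between panels) of 20 genes in the 4 libraries, 1 library per group and so without error bars. Acta2, Actg2 and Myl9 are higher in siDNMT1 than in control and in siDNMT1_OB than in OB. Lss is highest in siDNMT1_OB, and C3, Clec3b and Abca1 are highest in OB.

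At the log2 threshold of 1, mitotic genes formed the largest block of higher genes among the lists. Of 56 genes for the G2 phase, spindle and kinetochore, all measured, 32 were called higher and none lower, against 2.35% and 1.35% of all tested genes, and all 56 had a value above 0. Their median log2 fold change was 1.02, with a range of 0.30 to 1.62. Ndc80, a subunit of the kinetochore complex that holds microtubules, lay at the top with 203 counts in OB against 743 in siDNMT1_OB, and 1666 and 1532 in control and siDNMT1 (1.62, 1.40 to 1.86). Kif23, a kinesin of the central spindle, had 344 counts in OB and 1056 in siDNMT1_OB (1.37), and the kinetochore protein gene Cenpf 659 and 1947 (1.32). The proliferation marker Mki67 rose from 1909 counts to 5034 (1.16). Ccnb1, the mitotic cyclin B1, rose from 875 to 2243 (1.11), and the mitotic kinase genes Aurka (347 and 907, 1.14), Aurkb (403 and 1007, 1.08) and Nek2 (310 and 879, 1.26) were called as well. Foxm1, a transcription factor of G2 and mitosis genes, was called at 1.02 (611 and 1470 counts). Just short of the threshold were Top2a (2754 and 6506 counts, 1.00), Plk1 (0.99), Ccna2 (0.99) and Cdk1 (0.90). Since the list median sits at the threshold, the count of 32 moved with the scaling, to 27 with total counts and 36 with DESeq2 size factors, while the median stayed between 1.00 and 1.04. The count was 52 at a threshold of 1.5-fold, 1 at 1.5 on the log2 scale, and 15 of 25 among genes that overlap no other gene. At 1.5 on the log2 scale, the smooth muscle and collagen lists given below held more calls, 4 of 20 and 4 of 31.

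The same list was low in both OB-induced libraries. Its median log2 fold change was −2.19 for OB over control, −1.09 for siDNMT1_OB over siDNMT1 and −0.06 for siDNMT1 over control. OB over control shares the OB library, and siDNMT1_OB over siDNMT1 the siDNMT1_OB library, with the comparison described here. Summed over the list, the level was 7556.5 CPM in control, 7251 CPM in siDNMT1, 1771.5 CPM in OB and 3397 CPM in siDNMT1_OB. The mitotic genes thus stood in siDNMT1_OB between OB and the untreated libraries. Whether more cells divided or dividing cells held more of this RNA cannot be told apart in bulk RNA.

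DNA replication genes lay on the same side with smaller values. Of 50 measured genes, 10 were called higher (2.35% of all tested genes were) and none lower, 47 had a value above 0, and the median was 0.72. E2f2, an E2F factor of the G1/S switch, rose from 16 counts in OB to 57 in siDNMT1_OB, with 203 in control and 128 in siDNMT1 (1.49, 0.77 to 2.49). The replication licensing genes Cdc6 (123 counts in OB and 324 in siDNMT1_OB, 1.14), Mcm5 (608 and 1553, 1.11) and Mcm10 (163 and 417, 1.10) were called. So were Tk1, thymidine kinase (548 and 1434, 1.14), Rrm2, a ribonucleotide reductase subunit (623 and 1503, 1.03), Clspn, a checkpoint mediator (314 and 804, 1.11), and Ccne2, cyclin E2 (215 and 533, 1.06). Not every gene of the list followed. Mcm7 had 955 and 968 counts (−0.22) and Rpa1, a single-strand DNA binding subunit, 2628 and 3155 (0.02). In untreated cells the median of this list was −0.34, with 49 of the 50 genes below 0.

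None of the 15 measured G1 cyclins and cyclin-dependent kinase inhibitors was called. The D-type cyclin genes were nearest to the threshold, with 4324 and 9669 counts for Ccnd1 (0.92) and 4229 and 8755 for Ccnd2 (0.81). Cdkn1a, the p21 inhibitor, had 3970 and 7005 counts (0.58), and Cdkn1b, the p27 inhibitor, 4657 and 4334 (−0.35). Kinesins, the microtubule motors, were called higher in 9 of 36 cases, against 2.35% of all tested genes. Of these, 8 act in mitosis (Kif2c, Kif11, Kif14, Kif18b, Kif20a, Kif20b, Kif23 and Kifc1) and Kif5c is a transport motor (67 and 258 counts, 1.68). Among 17 tubulin genes 16 were above 0 and 2 were called, Tubb6 (2111 and 5180, 1.05) and Tubb3 (44 and 126, 1.24).

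To see what the cell cycle genes have in common in sequence, the window from 250 bases before to 50 bases after each RefSeq start site (GRCm38.p6) was searched on both strands. A promoter entry was found for 9588 of the 13228 tested symbols, for 47 of the 56 mitosis genes and for 40 of the 50 replication genes. The CCAAT box, a binding motif of NF-Y, was found in 74.5% of the mitosis promoters and in 39.5% of all promoters with an entry. TTTGAA, the letters of the cell cycle homology region bound by the DREAM and MuvB complexes, was found in 72.3% against 11.6%, and both together in 63.8% against 5.07%. The E2F letters TTTCCCGC or TTTGGCGC were in 12 of the 40 replication promoters, 4.26% of the mitosis promoters and 3.12% of all. The shares of all promoters cover only the tested genes with an entry. These shares follow from which genes are on the lists and describe their promoters, not binding in these cells. The promoters of Ckap2 and Ect2 are shown because they belong to the mitosis genes called higher (log2 fold changes 1.25 and 1.21, the highest with both motifs in the 250 bases before the start), and that of Mcm5 because it is the replication gene called highest with an E2F motif there, taking for all 3 start sites within 100 bases of the table's. Capitals mark CCAAT and TTTGAA, read on either strand, in the first and second sequence and the E2F letters in the third. They are chr8:22185820-22186069 on the minus strand, chr3:27153879-27154128 on the minus strand and chr8:75109259-75109508 on the plus strand.
Ckap2: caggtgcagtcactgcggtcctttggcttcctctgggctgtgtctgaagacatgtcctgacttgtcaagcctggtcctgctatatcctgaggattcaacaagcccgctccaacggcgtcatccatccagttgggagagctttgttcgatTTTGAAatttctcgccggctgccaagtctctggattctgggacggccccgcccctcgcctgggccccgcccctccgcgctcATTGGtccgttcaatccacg
Ect2: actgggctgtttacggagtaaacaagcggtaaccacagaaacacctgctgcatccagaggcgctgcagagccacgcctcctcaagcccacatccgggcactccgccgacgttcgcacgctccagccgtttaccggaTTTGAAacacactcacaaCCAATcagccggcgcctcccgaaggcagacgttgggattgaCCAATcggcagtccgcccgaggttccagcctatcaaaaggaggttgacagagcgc
Mcm5: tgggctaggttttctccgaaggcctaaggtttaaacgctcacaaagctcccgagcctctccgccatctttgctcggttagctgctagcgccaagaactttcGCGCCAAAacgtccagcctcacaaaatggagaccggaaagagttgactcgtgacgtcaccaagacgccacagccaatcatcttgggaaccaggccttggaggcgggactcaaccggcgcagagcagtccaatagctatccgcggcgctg

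**Figure D3:**
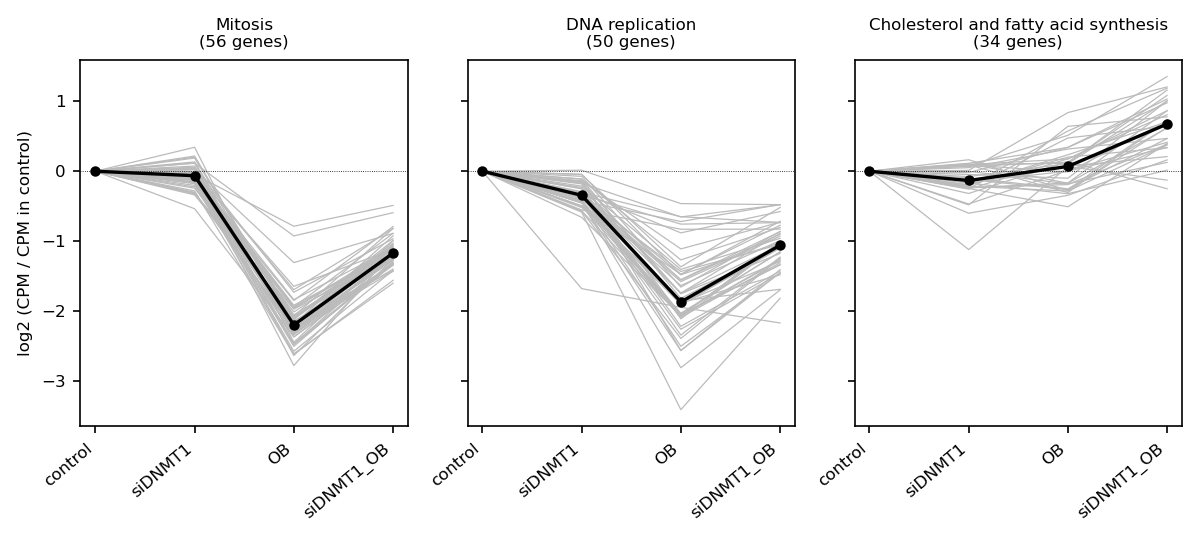
Each grey line is 1 gene of the list named above the panel, drawn as the log2 ratio of its CPM to that in the control library, over the 4 libraries in the order control, siDNMT1, OB and siDNMT1_OB, and the black line is the median. Mitosis and DNA replication genes drop in OB and less in siDNMT1_OB, and the sterol and fatty acid genes stand highest in siDNMT1_OB.

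Some gene lists that go with cell growth lay on the same side of 0 with few or no calls. In ribosome biogenesis, the making of ribosomes in the nucleolus, none of 42 genes was called but 40 lay above 0, with a median of 0.29. The highest were Nop56 (1403 and 2572 counts, 0.63) and Nop58 (1584 and 2813, 0.59), core proteins of the small nucleolar particles that methylate ribosomal RNA. Proteasome subunits had 32 of 37 genes above 0 and a median of 0.14, and none was called. Cytosolic ribosomal protein genes did not share this, with 57 of 80 below 0 and a median of −0.06. One of them was called lower, Rplp1, an acidic stalk protein, at 36867, 15360, 25812 and 14811 counts in control, siDNMT1, OB and siDNMT1_OB (−1.04, −1.07 to −1.01), while the next lowest, Rpl23a, was at −0.40. Atp5e, the epsilon subunit of mitochondrial ATP synthase, was likewise the only called gene of 75 nuclear respiratory chain genes (1982 and 1130 counts, −1.05), and their median was −0.07. Both Rplp1 and Atp5e were also called lower in untreated cells (−1.18 and −1.33).

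Cholesterol and fatty acid synthesis stood apart from the other metabolic lists. Of 34 genes, all measured, 5 were called higher and none lower, against 2.35% and 1.35% of all tested genes, 32 lay above 0, and the median was 0.63. The count of 5 was 19 at a threshold of 1.5-fold, 0 at 1.5 on the log2 scale, and 1 of 18 among genes that overlap no other gene. Lss, lanosterol synthase, rose from 2962 counts in OB to 7538 in siDNMT1_OB, with 3808 in control and 3483 in siDNMT1 (1.10, 1.04 to 1.17). Mvd, mevalonate diphosphate decarboxylase (725 and 1768, 1.04), Idi1, isopentenyl diphosphate isomerase (4164 and 10075, 1.03), Cyp51, lanosterol demethylase (4147 and 10026, 1.03), and Msmo1, methylsterol monooxygenase (4720 and 11174, 1.00), were the other called genes. The lowest values of the list were those of the regulator gene Srebf1 (1286 and 1161 counts, −0.39), Acly (7705 and 7974, −0.19) and the desaturase gene Fads1 (7302 and 9495, 0.14). The list median was −0.13 for siDNMT1 over control, 0.07 for OB over control and 0.81 for siDNMT1_OB over siDNMT1. The cholesterol exporter Abca1, described above, was called lower.

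Smooth muscle contractile genes were a smaller block, and several of them were also called without induction. Of 20 measured genes, 6 were called higher, against 2.35% of all tested genes, and none lower, with a median of 0.51 against 0.63 in untreated cells. Acta2, smooth muscle α-actin (chromosome 19, 34241090 to 34255336), rose from 25413 counts in OB to 98223 in siDNMT1_OB (1.71, 1.69 to 1.73), and stood at 26761 in control against 87394 in siDNMT1. It held the most counts of any called gene. Actg2, smooth muscle γ-actin (481, 1300, 335 and 1655 counts, 2.06), Myl9, a myosin regulatory light chain (1887, 5580, 4001 and 11419, 1.27), and Itga8, the α8 integrin subunit (62, 286, 536 and 2598, 2.03), were each higher in siDNMT1 than in control and in siDNMT1_OB than in OB. The sixth was Tagln, transgelin (22 and 77 counts, 1.49), but 67.9% of its exon length overlaps Pcsk7 or Gm48529 on the other strand. Others of the list stayed below the threshold, such as the calponin gene Cnn2 (13346 and 23976, 0.60), caldesmon Cald1 (20106 and 35816, 0.59) and Mylk, myosin light chain kinase (1331 and 1182, −0.41). Myh11 and Des, which define mature smooth muscle, did not pass the filter, with 32 and 30 counts and with 10 and 1. Srf, the transcription factor that drives these genes through CArG boxes, had 1110 and 1729 counts (0.40). The CArG box was found in 4 of the 16 promoters of the list with an entry, against 1.32% of all. Myl9 was the only called gene of this list with one in the 250 bases before a start site within 100 bases of the table's, and its sequence is shown for that reason, with the box in capitals, at chr2:156775214-156775463 on the plus strand.
Myl9: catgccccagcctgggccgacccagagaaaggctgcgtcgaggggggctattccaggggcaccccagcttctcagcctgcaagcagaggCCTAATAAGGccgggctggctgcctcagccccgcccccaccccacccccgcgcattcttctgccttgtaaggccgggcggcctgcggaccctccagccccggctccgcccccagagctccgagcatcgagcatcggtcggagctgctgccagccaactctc

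Striated muscle genes were mostly below the filter, with 15 of 35 measured, and 5 were called higher, against 2.35% of all tested genes. With a mean of at least 5 CPM 2 of 7 were, and among genes that overlap no other gene 2 of 4. Besides Myom1 and Hdac9 these were Tnnt2, cardiac troponin T (30 and 85 counts, 1.21), Mef2c, a muscle and cartilage transcription factor (383 and 935, 1.04), and Dmd, dystrophin (112 and 268, 1.00). Tek, an angiopoietin receptor, was the 1 endothelial marker of 4 above the filter and was called higher (63 and 203, 1.42), while Pecam1, Kdr and Cdh5 had at most 4 counts in either library. Of the 17 progenitor surface and pericyte genes, Mcam, Rgs5, Rgs4 (182 and 904, 2.06) and Nes, the intermediate filament nestin (78 and 280, 1.58), were called higher. Anpep, the aminopeptidase CD13 (4336 and 1611, −1.67), and Cd34 (228 and 111, −1.27) were called lower. RGS proteins, which switch off G protein signals, were called higher in 3 of 10 cases, against 2.35% of all tested genes, the third being Rgs17 (6 and 43, 2.29).

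The IGF axis had the widest total range of all lists, with 2 genes higher and 2 lower of 15 and a median of 0.06. Pappa2, a protease that frees IGFs by cutting IGFBP3 and IGFBP5 (chromosome 1, 158711727 to 158980490), rose from 115 counts in OB to 1233, with 42 in control and 142 in siDNMT1 (3.16, 2.90 to 3.47). Igfbp2, a binding protein gene that lies beside Igfbp5 on chromosome 1 (72824503 to 72852474), had 39, 64, 28 and 191 (2.45, 1.95 to 3.15). The binding protein gene Igfbp3 went the other way with 145, 24, 154 and 42 counts (−2.06, −2.65 to −1.62) and was low in siDNMT1 and siDNMT1_OB. Igfbp5, described above, was the lowest. The neighbours Igfbp2 and Igfbp5 thus had opposite directions. Igf1 (1169 and 819, −0.75) and Igfbp4 (2044 and 1239, −0.96) were not called, and the receptor genes Igf1r (3293 and 4076, 0.06) and Igf2r (6539 and 7676, −0.01) were near 0. Igf2 had 1 count in OB and 34 in siDNMT1_OB and did not pass the filter.

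Growth factor pathways were called at few genes each. In FGF signalling 4 of 20 genes were called higher and none lower, against 2.35% and 1.35% of all tested genes. The list median was 0.56, and all 4 called genes are feedback or target genes of the ERK kinases. They were the Sprouty genes Spry1 (48 and 203, 1.80) and Spry4 (16 and 56, 1.47), the phosphatase gene Dusp4 (99 and 311, 1.39) and the ETS factor gene Etv4 (119 and 355, 1.32). Spry1 overlaps Gm42922 on the other strand over 24.4% of its exon length. Among the receptors Fgfr2 had 205, 777, 1560 and 3037 counts (0.72) and Fgfr1 8737 and 8968 (−0.21). Immediate early genes were called in 4 of 28 cases, all higher, against 2.35% of all tested genes, with a list median of 0.40. The 4 were Arc (9 and 37, 1.62), Atf3 (18 and 68, 1.58), Fos (18 and 57, 1.34) and Btg2 (409 and 976, 1.01). In TGF-β and BMP signalling the receptor gene Tgfbr2 was called lower, at 4133, 1593, 7225 and 3012 counts (−1.50, −1.57 to −1.44), and the activin subunit gene Inhbb higher (72 and 320, 1.88). The other 34 of these 36 genes were not called, Smad7 being at 0.65. Ctgf, a matricellular target of TGF-β and of YAP, had 1836 and 6543 counts (1.59) with 23.2% of its exon length overlapped by Gm15270, and was the 1 called gene of 14 YAP and TEAD targets, next to Cyr61 (1659 and 3415, 0.80).

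WNT genes were called 3 in each direction among 34, with a median of −0.05. The 3 lower genes all encode secreted antagonists, namely Sfrp2 (546 and 217, −1.56), Notum (180 and 83, −1.34) and Dkk2 (178 and 102, −1.03). Higher were Rspo2, an R-spondin that enhances WNT signals (5410 and 13186, 1.04), Lgr6, an R-spondin receptor (5 and 22, 1.59), and Nkd2, an intracellular antagonist (28 and 73, 1.09). For Notum, 38.1% of the exon length overlaps Myadml2os or Notumos. None of 16 NOTCH genes and none of 12 Hedgehog genes was called. The furthest NOTCH values were those of the receptor gene Notch3 (4561 and 3224, −0.74) and the target gene Hey1 (16 and 38, 0.93). Of the Hedgehog genes 9 lay below 0, and the furthest were Disp1, which releases the ligands (2849 and 2365, −0.51), and the receptor gene Ptch1 (448 and 701, 0.40).

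The skeletal gene lists held few calls. Osteoblast transcription factors had a median of 0.13, with 2 of 15 called, Runx1 (231 and 566, 1.04) and Hivep3 (150 and 372, 1.06). Runx2, the master factor of OBs, had 1644 and 2327 counts (0.26). Among 15 markers and mineralization genes Phex was called lower and Dmp1, a phosphoprotein of osteocytes, higher (8 and 37 counts, 1.76), and Spp1, osteopontin, had 4226 and 7261 (0.54). Cartilage genes were called higher in 3 of 13 cases and lower in none, against 2.35% and 1.35% of all tested genes. Col2a1, the main cartilage collagen, had 10580, 13440, 4675 and 13813 counts in control, siDNMT1, OB and siDNMT1_OB (1.32, 1.27 to 1.37), so that siDNMT1_OB was at the level of siDNMT1. Col10a1, the collagen of hypertrophic cartilage, had 16, 77, 19 and 147 (2.60), and Col9a2 26 and 99 (1.62). Acan, the cartilage proteoglycan, was at 0 in both libraries, and Sox9 had 4429 and 6215 counts (0.25). Of the genes followed by RT-qPCR in the study, which were chosen there with these samples in view, Itga8, Hdac9 and H19 were called higher. Rora (284 and 307, −0.13) was near 0, and Sox6 (21 and 17) and Ihh (5 and 2) did not pass the filter in this comparison.

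Matrix genes followed no common direction. Collagens had a median of 0.18, with 6 of 31 higher, including Col27a1 (1161 and 3341, 1.28), Col14a1 (22 and 78, 1.51) and Col8a1 (11 and 56, 1.94), and 2 lower, Col15a1 (1977 and 908, −1.36) and Col20a1 (430 and 233, −1.12). Of all tested genes, 2.35% were higher and 1.35% lower. The 6 higher calls became 2 of 24 collagens with a mean of at least 5 CPM and 3 of 13 among genes that overlap no other gene. The main bone collagen genes Col1a1 (205939 and 288387, 0.24) and Col1a2 (250823 and 297331, 0.00) were not called. Thbs1, the matricellular protein thrombospondin 1 that activates TGF-β, had 3242, 5529, 2974 and 14865 counts (2.08, 2.02 to 2.14), the highest of 33 elastic fibre and matrix glycoprotein genes. Lama5, a basement membrane laminin chain (152 and 741, 2.03), and Eln, elastin (140 and 388, 1.22), were called higher and the fibulin gene Efemp1 lower (897 and 395, −1.42). The leucine-rich proteoglycan genes Lum (32 and 129, 1.71) and Fmod (6 and 21, 1.33) were called. None of 24 genes for collagen modification and crosslinking was called, and the single call among 26 matrix proteases and inhibitors was Adamts15 (156 and 88, −1.05).

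Complement genes lay below 0 without exception. Of 13 measured genes 2 were called lower, 1 of which is described here, all 13 had negative values, and the median was −0.46 against 0.02 in untreated cells. C3, the central component, fell from 1783 counts in OB to 538 in siDNMT1_OB, whereas control held 7 and siDNMT1 9 (−1.97, −2.11 to −1.83). Of the acute phase genes, Hp, haptoglobin (2388 and 971, −1.54), and Lbp, the endotoxin binding protein (1504 and 592, −1.58), were lower. Others lay above 0 without a call, such as Cp, ceruloplasmin (0.66), and Ptx3, pentraxin 3 (0.78). All of these were chosen after their values were seen, so they give no common direction for acute phase genes. The abundant gene Il1rn, the interleukin 1 receptor antagonist (20450 and 10511, −1.20), was called too and was also chosen afterwards.

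Glucocorticoid-responsive genes, which both OB-induced groups met through dexamethasone, had 3 lower calls of 23, none higher, and a median of −0.25. Of all tested genes, 1.35% were called lower and 2.35% higher. The called genes of the list were Angptl4, an inhibitor of lipoprotein lipase (273 and 124, −1.37), Glul, glutamine synthetase (6226 and 3036, −1.28), and Fam107a (4720 and 2628, −1.09). The classical targets Tsc22d3 (9970 and 12032, 0.03), Fkbp5 (8405 and 7871, −0.34) and Per1 (3637 and 4066, −0.08) were nearer to 0, and the receptor gene Nr3c1 had 1918 and 2390 (0.07). Sgk1, a kinase of the same list, was at 0.84 (4909 and 10399). Of 27 ABC transporters 22 lay below 0, with a median of −0.28 and Abca1 as the single call. Glutathione S-transferases (12 of 15 below 0, median −0.23, Mgst1 called at −1.21) and aldehyde dehydrogenases (10 of 14 below 0, median −0.28, Aldh3a1 called at −1.04) looked alike.

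Other families gave few calls. Of 44 interferon-stimulated genes 3 were called higher, against 2.35% of all tested genes, and the list median was 0.20 against 1.16 in untreated cells. The 3 were the ubiquitin-like modifier Isg15 (40, 225, 255 and 686 counts, 1.18), Ifi44 (14, 263, 231 and 629, 1.20) and the virus tether Bst2 (314, 1054, 1646 and 4019, 1.04). Among 25 imprinted genes H19 (2, 11, 17 and 117 counts, 2.42), Dlk1 (9 and 50, 2.03) and Peg10 (95 and 279, 1.30) were higher, and Slc38a4 (33 and 17, −1.11) and Mkrn3 (49 and 26, −1.10) lower. Of 34 germline and pluripotency genes that promoter methylation keeps silent, 3 passed the filter and none of them was called, with 18 at 0 in all 4 libraries. None of 337 zinc finger genes named Zfp was called and their median was 0.00. There was likewise no call among 25 histone genes, 9 Hox genes, 33 glycolysis and hypoxia genes (median 0.02), 18 adipocyte genes (median −0.12) and 13 mitochondrially encoded genes (median 0.00). ATF4 target and amino acid genes had 31 of 35 above 0, a median of 0.30 and 2 calls, Atf3 and Chac1, a glutathione-degrading enzyme (258 and 656, 1.10).

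**Figure D4:**
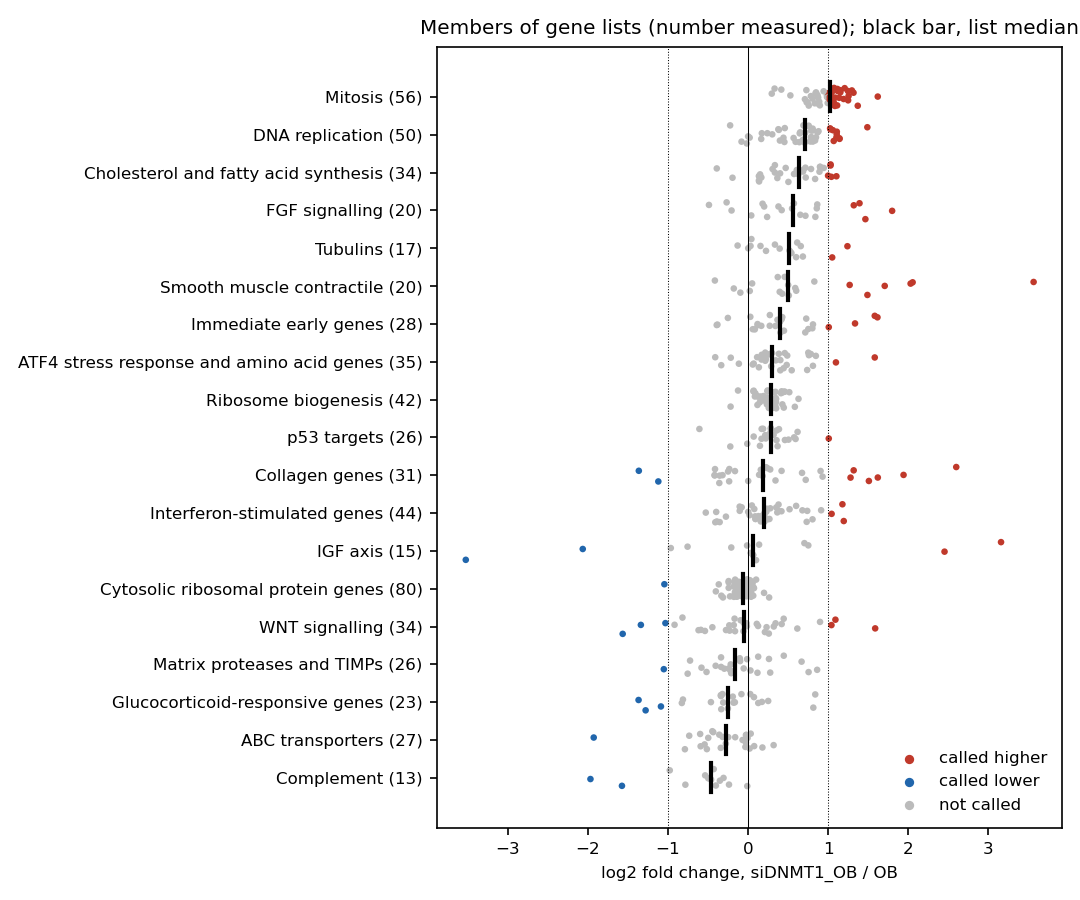
Points are the measured members of 19 gene lists (number in brackets) by log2 fold change, siDNMT1_OB over OB, spread vertically for legibility, with genes called higher in red, called lower in blue and the list median as a black bar. Mitosis genes all lie above 0 with a median of 1.02, complement genes all below 0 with a median of −0.46, and the IGF axis reaches from −3.52 to 3.16.

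Untreated cells gave a second comparison of both siRNAs that shares no library with this one. There 246 genes were higher in siDNMT1 than in control (1.86%) and 176 lower (1.33%). Called higher in both pairs were 55 genes, 17.7% of those higher here and 22.4% of those higher in untreated cells. Called lower in both were 39, or 21.9% and 22.2%. The higher ones include Pawr, Pappa2, Myom1, Col10a1, Cacna1h, Hdac9, H19, Erg, Pcp4l1, Actg2, Itga8, Acta2 and Myl9. Further genes of this set, chosen after their values were seen, were Adcy1, an adenylyl cyclase (73, 219, 157 and 677 counts in control, siDNMT1, OB and siDNMT1_OB), Trpv2, a cation channel (14, 60, 82 and 384), and Plxnb1, a semaphorin receptor (109, 348, 501 and 1611). The lower ones include Igfbp5, Phex, Acsbg1, Igfbp3, Serpinb9b, Tgfbr2, Angptl4, Cd34, Rplp1 and Atp5e. Abundant genes of that set, also chosen afterwards, were Gsn, the actin-severing protein gelsolin (19419, 7101, 49099 and 23879 counts, −1.28 here and −1.37 in untreated cells), Npc2, a lysosomal cholesterol carrier (8664, 3590, 13295 and 7273, −1.11 and −1.19), and Xdh, xanthine dehydrogenase (706, 307, 7730 and 3455, −1.40 and −1.11). None of the genes of the mitosis list was called in untreated cells. Whether the effect differed between the pairs was not tested, since each group had 1 library. A culture of 3 days after transfection is given for the OB-induced groups only. The pairs, and OB and control, may therefore differ in culture time as well as in medium, and the part of each was not tested.

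**Figure D5:**
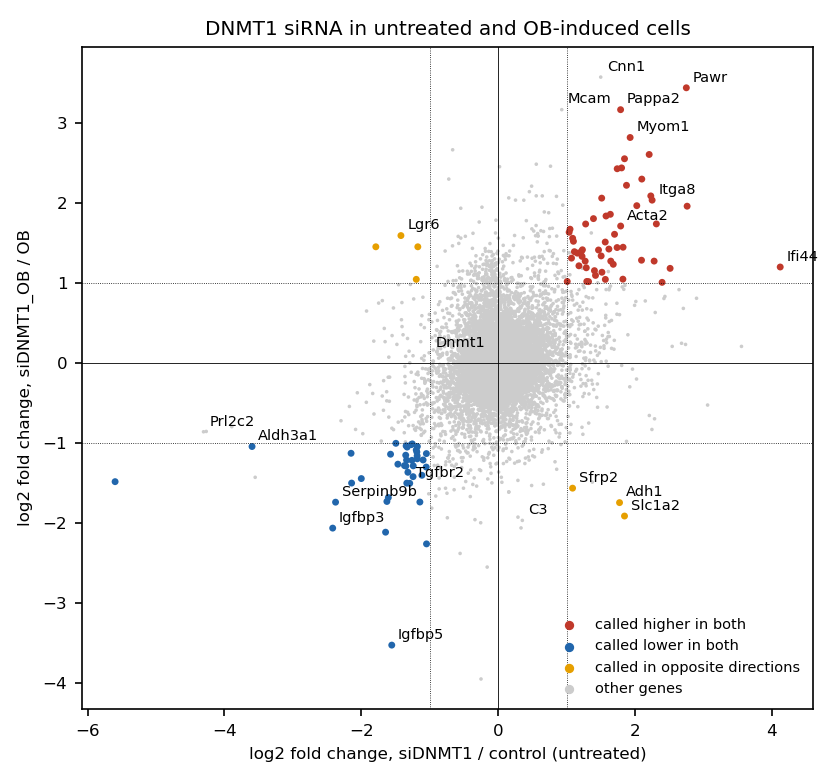
Each point is a tested gene, with the log2 fold change siDNMT1 over control in untreated cells on the horizontal axis and siDNMT1_OB over OB on the vertical axis. The 55 genes called higher in both pairs are red, the 39 called lower in both are blue and the 7 called in opposite directions are orange, and Dnmt1 lies near −1 on the horizontal axis and near 0 on the vertical axis.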

How the data were processed

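Total RNA was extracted with Trizol, and poly(A) RNA was made into libraries with a TruSeq RNA v2 protocol. Per the submitters' processing notes and the study's methods, reads were trimmed with Trimmomatic, aligned with HISAT2 (the notes name mm10) and counted per gene with featureCounts. Versions, strand use and the handling of multiply mapped reads are not given in the sources used here. The authors deposited whole-number counts per gene without normalization, and 0 columns of other samples were left out. Gene types came from GENCODE M21 (54495 genes matched by ID) and promoter sequences from RefSeq, GRCm38.p6.

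From these counts, edgeR 4.0.16 under R 4.3.3 gave TMM factors (0.991 to 1.014) for the genes with a mean of at least 1 CPM, and log2 fold changes with a prior count of 2. Genes were called at a log2 fold change of 1 or more in size and an adjusted p under 0.05. The p came from a two-sided exact binomial test that set the reads of both libraries against each other (scipy 1.17.1, Benjamini-Hochberg over all 13233 genes). The rule was tried on counts simulated with counting error only. That trial held no spread between cultures, so it does not measure false calls between conditions. Intervals are exact 95% intervals of the counts and cover counting error only, since reads carried no molecular identifiers. A list is described by its counts and median. Named were Dnmt1 and the DNA methylation genes, the 15 highest and 15 lowest called protein-coding genes with at least 50 counts in the higher library, up to 6 called members per list (2 where none was called) and the genes followed by RT-qPCR. Other members of a list are given as examples, and further genes are marked as chosen after their values were seen. The comparison and the gene lists were chosen with earlier results of these data known. Alternatives were other scalings, filters, prior counts and thresholds, edgeR's exact test with an assumed spread, and genes that overlap no other gene. The values of some genes are not reported here, though they stay in the fits and counts.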

Additional observations from a re-analysis of the deposited data

Results flagged for a closer look

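Several results had opposite signs with and without OB induction. With 1 library per group the difference between the pairs was not tested. Called in opposite directions were 7 genes, and 6 of them are given here, with siDNMT1_OB over OB first and siDNMT1 over control second.

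The alcohol dehydrogenase gene Adh1 had log2 fold changes of −1.75 and 1.77, from 92 and 31 counts in OB and siDNMT1_OB and 5 and 21 in control and siDNMT1. For the glutamate transporter gene Slc1a2 they were −1.91 and 1.85, and for the secreted WNT antagonist Sfrp2 −1.56 and 1.09. The R-spondin receptor gene Lgr6 had 1.59 and −1.42. The keratin gene Krt88 (1.45 and −1.17) and the pseudogene Gm7241 (1.45 and −1.79) both rested on 6 counts in OB and 23 in siDNMT1_OB.

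Among the gene lists, DNA replication had a median of 0.72 in OB-induced cells and −0.34 in untreated cells, with 47 of 50 genes above 0 in the first and 49 of 50 below 0 in the second.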

How the results depend on the processing

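With 1 library per group no paired analysis was possible because no group had a second replicate, and no library could be left out. The 5 other scalings, 1 of them (TMM factors over all genes of the table) chosen after seeing the data, gave 284 to 327 higher and 166 to 196 lower genes and moved the median of all genes to between −0.016 and 0.030. The prior counts moved neither count by over 1.5 times, and the following settings moved 1 or both. A threshold of 1.5-fold gave 817 higher and 560 lower genes and one of 1.5 on the log2 scale gave 73 and 38. A mean of at least 5 CPM left 185 and 72, genes that overlap no other gene 160 and 88, and no expression filter gave 450 higher and 428 lower genes. These 3 change how many genes were tested. The thresholds moved the counts of the lists likewise, as for DNA replication with 34 genes higher at 1.5-fold and 0 at 1.5 on the log2 scale, against 10. The edgeR exact test gave 35 and 20 with an assumed coefficient of variation of 0.2. At 0.4 it gave 0 and 0, with 61 genes at an unadjusted p under 0.05. With the assumed coefficient of 0.2, Ndc80 alone was left of the mitosis list, and the called DNA replication and cholesterol synthesis genes were not left. The median of the adhesion G protein-coupled receptors, 0.15 in the main setting, was 0 with no filter, where 27380 genes were tested, and with a mean of at least 5 CPM those of the small leucine-rich proteoglycans (0.04) and the progenitor surface and pericyte genes (0.08) were −0.49 and −0.02. Where another list median crossed 0, the value on the other side lay between the medians of its members' lower and upper interval bounds. That range describes a typical member and is not an interval of the list median. All called named genes kept their sign under the scalings and prior counts tried. For the scalings this was fixed beforehand, since they shift all genes alike and by little beside the threshold of 1. Depth limits the low genes most, since 6 counts in OB, as for Rgs5, leave an interval of 1.77 to 4.49 around its log2 fold change of 2.66.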

Other observations

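Of 263 long intergenic noncoding RNAs tested 6 were called higher (2.28%) and 12 lower (4.56%), against 2.35% and 1.35% of all tested genes. H19 was the highest, and the lower ones, chosen after their values were seen, included Gm17382 (72 and 29 counts in OB and siDNMT1_OB, −1.49), Gm49083 (85 and 40, −1.29) and A330074K22Rik (361 and 188, −1.18).

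Some abundant called genes belong to none of the lists above and were also chosen after their values were seen. Sned1, an extracellular matrix protein gene, had 23408 counts in OB and 11781 in siDNMT1_OB (−1.23). Selenop, the selenium carrier of plasma, had 3160 and 1596 (−1.23) and Emb, the gene of embigin, a chaperone of lactate transporters, 2217 and 947 (−1.47). On the higher side were Agrn, the basement membrane proteoglycan agrin (2086 and 5076, 1.04), Clu, the secreted chaperone clusterin (1110 and 2773, 1.08), and Rflnb, a filamin-binding protein gene (898 and 3125, 1.55).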
